A study of Mus musculus with 4 samples.

Results

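The genes described here encode the chromatin cofactors of MYC proteins: Trrap, Ruvbl1, Ruvbl2, Wdr5, Zbtb17, Kat5, Kat2a, Ep400 and Hcfc1, which are 9 of the 18193 genes measured. They were chosen by name, and every probe set whose platform annotation gives only one of these genes was taken, which made 22 of 45037 probe sets. A probe set is a group of short array probes that together report one transcript. For each gene the probe set of highest mean signal over 4 arrays stands for the gene, and all others are reported beside it.

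The samples were haematopoietic stem cells (HSCs) from bone marrow of transgenic mice that carry a fusion of N-myc with the red fluorescent protein mCherry. Cells were gated as Lin-Sca+Kit+CD48-CD150+, were neither cultured nor treated, and were divided by mCherry signal into fractions called N-myc high and N-myc low. Each fraction has 2 arrays, which the labels call mouse 1 and mouse 2. Both fractions carry the fusion, so the low fraction is a low-reporter population and not one without N-myc. The labels used here give no age, sex or strain. The series title concerns the ubiquitin ligase HUWE1, and the comparison here asks how stem cells with high and low N-myc differ.

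N-myc and its relatives bind DNA as partners of MAX and act through the complexes they bring with them. A conserved box of the MYC amino terminus binds TRRAP, a giant scaffold that is shared by the TIP60 and SAGA acetyltransferase complexes. Other contacts reach WDR5, HCFC1 and the zinc finger protein MIZ1, through which MYC can also repress genes such as those of cyclin-dependent kinase inhibitors. In stem cells N-myc and c-Myc act together in self-renewal and survival.

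The deposited values are log2 intensities after robust multi-array averaging (RMA), so a difference of 1 is a doubling. Array medians over all probe sets lay between 5.26 and 5.32. Mycn, whose product defined the sort, read 10.48 and 10.39 in N-myc high (mouse 1 and 2), against 9.44 and 9.65 in N-myc low. That was its brightest probe set. The second, 1425922_a_at, read 9.56 and 9.10 in N-myc high, against 9.23 and 9.20 in N-myc low, a difference of 0.11 with overlapping groups, and the dimmest, 1425923_at, stood highest in N-myc high of mouse 2 (4.32 and 6.72 in N-myc high, against 4.52 and 4.40 in N-myc low). Of the HSC markers, 5 of 6 were measured, and their summed linear intensity was 4076 and 4976 in N-myc high, against 3178 and 3156 in N-myc low. By the brightest probe set of each, Procr, Mecom and Hlf differed by 1.19, 1.05 and 0.79 without overlap, while Slamf1 (0.17) and Kit (-0.13) overlapped. The size depended on the probe set for Mecom, whose others gave 0.04 and 0.08, and for Hlf, whose other gave 0.11. Those of Slamf1 gave 0.59 and 0.16, that of Kit gave -0.33, and Procr had a single probe set. Cd48, which the gate selects against, read 7.42 and 7.11 in N-myc high, against 9.89 and 9.07 in N-myc low. Macrophage markers (5 of 5 measured) summed to 507 and 499 in N-myc high, against 225 and 166 in N-myc low. C1qb alone carried most of this gap, with a difference of 2.66 on the log2 scale. The other 4 summed to 205 and 142 in N-myc high, against 171 and 116 in N-myc low, with differences from -0.14 (Adgre1) to 0.32 (C1qa). Each marker was read from its brightest probe set alone. Dimmer probe sets of Csf1r gave 1.18 and 0.93, against 0.27 for its brightest, and those of C1qb gave 2.92 and 0.99. Granulocyte markers (4 of 5 measured) summed to 25341 and 23511 in N-myc high, against 27918 and 28297 in N-myc low. S100a8 and S100a9 made up most of these sums and each differed by -0.13, while Mpo differed by -0.63 and Elane by -0.83. Erythroid markers (3 of 5 measured) summed to 347 and 240 in N-myc high, against 511 and 531 in N-myc low. B cell markers (4 of 5 measured) summed to 167 and 287 in N-myc high, against 239 in each N-myc low array. Cd79a differed by 0.65, and Pax5, Ms4a1 and Cd79b by -0.22, -0.25 and -0.21. T cell markers (5 of 5 measured) summed to 117 and 143 in N-myc high, against 117 and 112 in N-myc low. No marker can be read as 0 on this scale, and the part of these markers in the results below was not tested. Of mouse 1, the N-myc high and N-myc low arrays carried Xist (11.38 and 11.10) together with the Y-linked Eif2s3y (8.53 and 8.43), whereas Xist was at 3.84 and 3.70 in those of mouse 2. Whether mouse 1 is a single animal or a mixture was not tested. In bulk RNA, a lower share of cells that express a gene and less of its RNA per cell cannot be told apart.

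No difference between the fractions was resolved for any of the 9 cofactor genes. None passed a Benjamini-Hochberg adjusted p of 0.05 in limma, where 0% of all 18193 genes passed, and none reached an unadjusted p of 0.05, where 6.31% of genes did. Their differences, N-myc high minus N-myc low, ran from -0.29 for Hcfc1 to 0.46 for Wdr5 on the log2 scale, with a median of 0.03 against -0.03 over all genes. For 3 of the 9, Ruvbl2, Wdr5 and Kat5, the groups did not overlap and N-myc high was above (15.6% of all genes), and for 1, Hcfc1, N-myc high was below (20.8% of all genes). The sign was the same in both mice for 4 of the 9, against 53.0% of all genes. The 95% intervals of the 9 differences reached from -0.99 (Ruvbl1) to 1.28 (Trrap), so that the precision differed between genes and a modest difference was not detectable with 2 arrays a group. With 2 against 2 arrays the smallest two-sided p of an exact permutation test is 0.333, and every p here therefore rests on limma's spread pooled over genes.

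**Figure D1:**
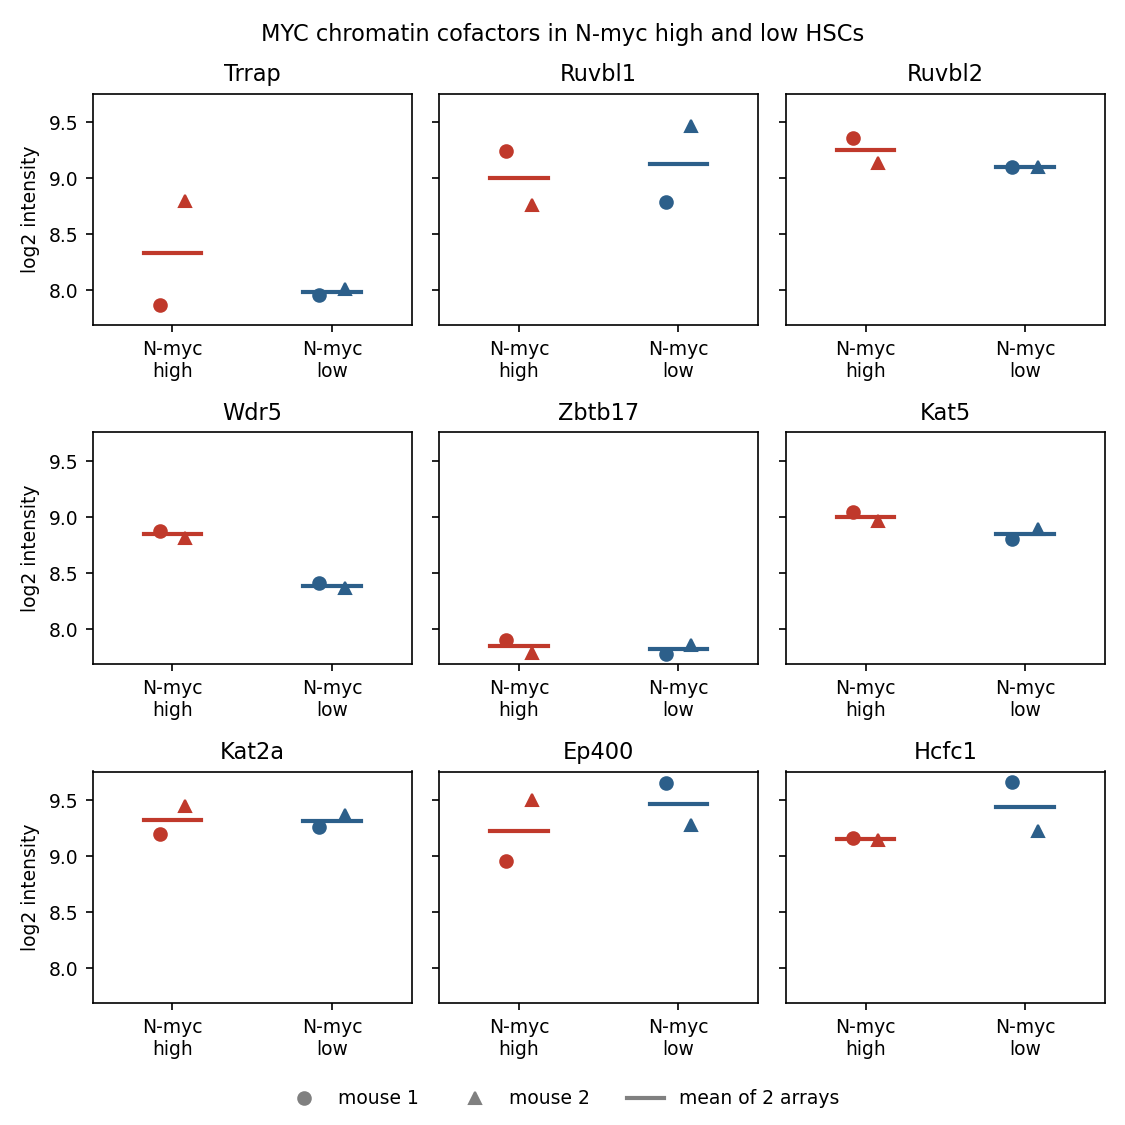
Log2 intensity (y axis, 1 shared scale) of the probe set that stands for each of the 9 genes, in N-myc high (left, red) and N-myc low (right, blue), with mouse 1 as circles, mouse 2 as triangles and the mean of 2 arrays as a bar. Wdr5 shows tight pairs that stand apart (8.88 and 8.82 against 8.41 and 8.36), while the pairs of Trrap, Ruvbl1 and Ep400 spread across each other; heights of different genes are not comparable.

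Trrap, the scaffold that links MYC to its acetyltransferases, had a single probe set (1416532_at). It read 7.87 and 8.79 in N-myc high (mouse 1 and 2), against 7.96 and 8.01 in N-myc low. One array, N-myc high of mouse 2, stood above the other 3, and the groups overlapped. The difference was 0.35 with a standard error (SE) of 0.352 (limma adjusted p = 0.877). By mouse it came to -0.09 (mouse 1) and 0.78 (mouse 2). Without that array the difference was -0.12, so its sign rested on 1 array.

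Ep400, the ATPase of the TIP60 complex that helps to exchange histone H2A.Z, had 7 probe sets, the most of any of the 9. The brightest (1426860_at) read 8.96 and 9.50 in N-myc high, against 9.65 and 9.28 in N-myc low. The groups overlapped, with a difference of -0.24 (SE 0.278, limma adjusted p = 0.900) that was -0.69 in mouse 1 and 0.22 in mouse 2, and 0.04 without N-myc high mouse 1. All 7 probe sets had a difference below 0, from -0.67 to -0.07, as did 25571 of all 45037 probe sets. For 4 of the 7, not including the brightest, the N-myc high arrays both lay below the N-myc low ones (22.1% of all probe sets). These 4 included 1440751_at, which differed by only -0.07.

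Among those 4 Ep400 probe sets, 1453130_at read 7.97 and 8.42 in N-myc high, against 8.83 and 8.88 in N-myc low. Its difference of -0.67 (SE 0.232) had an unadjusted p of 0.0418 and an adjusted p of 0.781 in the limma fit over all probe sets. A further probe set, 1437020_at, read 7.36 and 8.10 in N-myc high, against 8.31 and 8.24 in N-myc low, a difference of -0.55 (SE 0.307). In both the gap was wider in mouse 1 (-0.87 and -0.95) than in mouse 2 (-0.47 and -0.14). For 1447349_s_at the gap came almost wholly from mouse 1, with -1.03 there and -0.02 in mouse 2. The dimmest, 1447712_x_at, lay at 3.45 and 3.82 in N-myc high, against 4.28 and 3.69 in N-myc low, under the median probe set of 5.29. The probe sets 1440751_at and 1449610_at each differed by -0.07. Probe sets of one gene read the same RNA and are not independent replicates of the comparison.

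Ruvbl1 and Ruvbl2 encode a pair of related AAA+ ATPases, also called Pontin and Reptin, which assemble into one ring and serve the TIP60, INO80 and SRCAP complexes and the R2TP chaperone. Ruvbl1 (1416585_at) read 9.25 and 8.76 in N-myc high, against 8.78 and 9.47 in N-myc low. The mice went opposite ways, with 0.46 in mouse 1 and -0.71 in mouse 2, and the difference of -0.12 lay within 1 SE (0.328) of 0 (limma adjusted p = 0.968). Leaving out 1 array turned its sign in 2 cases, to 0.12 without N-myc high mouse 2 and to 0.22 without N-myc low mouse 2. Ruvbl2 (1422482_at) read 9.36 and 9.14 in N-myc high, against 9.10 in both N-myc low arrays. Its groups did not overlap, but mouse 2 contributed a gap of only 0.04 against 0.26 in mouse 1, and the difference was 0.15 (SE 0.187, limma adjusted p = 0.909). Neither ATPase gene passed the test.

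Kat5, the TIP60 acetyltransferase of histones H4 and H2A, had 2 probe sets. The brighter (1433981_s_at) read 9.04 and 8.97 in N-myc high, against 8.81 and 8.90 in N-myc low. The groups stood apart by a narrow margin, with a difference of 0.15 (SE 0.176, limma adjusted p = 0.895). Its second, 1433980_at, read 6.86 and 7.15 in N-myc high, against 6.99 and 6.25 in N-myc low, with a difference of 0.38 (SE 0.323). Here the N-myc low array of mouse 2 stood lowest, and the sign differed between the mice.

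Kat2a, also known as GCN5, the catalytic subunit of SAGA that acetylates histone H3, had 3 probe sets that did not give the same picture. The brightest, 1426783_at, read 9.20 and 9.45 in N-myc high, against 9.26 and 9.37 in N-myc low, a difference of 0.01 (SE 0.194, limma adjusted p = 0.998). The groups overlapped, and the sign differed between the mice. Another, 1422972_s_at, read 9.26 and 9.01 in N-myc high, against 8.40 and 7.99 in N-myc low. The dimmest, 1422971_at, read 8.99 and 9.15 in N-myc high, against 8.33 and 8.18 in N-myc low. In these last 2 every N-myc high array stood above every N-myc low array, by 0.86 and 0.65 within mouse 1 and by 1.02 and 0.97 within mouse 2.

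The difference was 0.94 (SE 0.239) for 1422972_s_at and 0.81 (SE 0.189) for 1422971_at, that is 1.92-fold and 1.76-fold, at unadjusted p values of 0.0151 and 0.0111. In the limma fit over all probe sets both had an adjusted p of 0.765, which missed the threshold, and 0% of probe sets passed it. The annotation ties both probe sets to the same transcript record while the brightest is tied to none, and whether the pair reads one stretch of the transcript was not tested. Over the mean of its 3 probe sets Kat2a differed by 0.59 (SE 0.165, unadjusted p = 0.0176, adjusted p = 0.731 in limma). The gene-level value of Kat2a thus depended on the probe set.

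**Figure D2:**
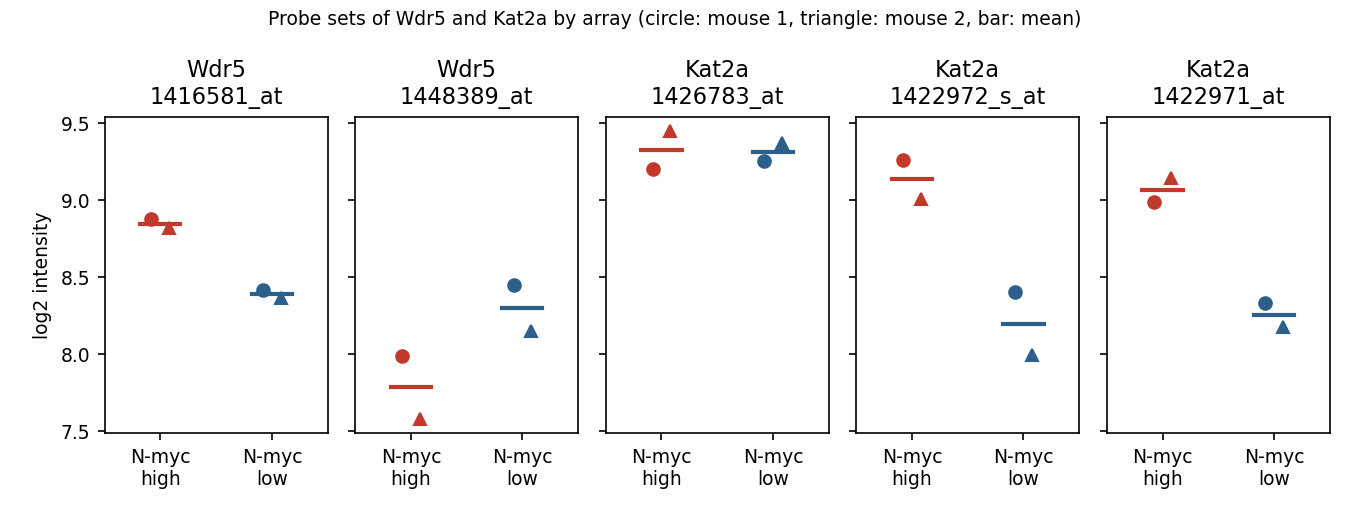
Log2 intensity (y axis) of the 2 probe sets of Wdr5 and the 3 of Kat2a in N-myc high (left, red) and N-myc low (right, blue), with mouse 1 as circles, mouse 2 as triangles and the mean as a bar. The 2 Wdr5 probe sets go opposite ways (0.46 and -0.51), and for Kat2a 2 of 3 stand higher in N-myc high while the brightest does not (0.01).

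Wdr5, the WD40-repeat adaptor of the histone H3 lysine methyltransferases called COMPASS, and a surface by which MYC is held on chromatin, had the lowest p of the 9. Its brighter probe set, 1416581_at, read 8.88 and 8.82 in N-myc high, against 8.41 and 8.36 in N-myc low. All 4 arrays followed the sort, with 0.46 in mouse 1 and 0.45 in mouse 2. The mean was 8.85 ± 0.042 in N-myc high, against 8.39 ± 0.036 in N-myc low (SD, n = 2 each), and the difference of 0.46 (SE 0.174, 95% interval -0.0033 to 0.92) was 1.37-fold, with an unadjusted p of 0.0511 and an adjusted p of 0.779 in limma. The second probe set, 1448389_at, went the other way. It read 7.99 and 7.58 in N-myc high, against 8.45 and 8.15 in N-myc low, a difference of -0.51 (SE 0.246, limma adjusted p = 0.799), with -0.46 in mouse 1 and -0.57 in mouse 2. The annotation ties both probe sets to one and the same sequence record, and their mean differed by -0.03 between the fractions, so no direction can be given for Wdr5 as a gene.

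Hcfc1, the host cell factor that OGT cleaves and that joins MYC, E2F and chromatin modifiers at promoters of growth genes, is X-linked and had 3 probe sets. The one that stands for the gene, 1433736_at, read 9.16 and 9.15 in N-myc high, against 9.66 and 9.23 in N-myc low. In each mouse the high fraction was the lower one, with -0.50 in mouse 1 and -0.08 in mouse 2, and the difference was -0.29 (SE 0.225, limma adjusted p = 0.836). It was -0.07 without N-myc low mouse 1, the array that stood highest. A dimmer probe set, 1421972_s_at, read 6.02 and 5.73 in N-myc high, against 6.48 and 6.54 in N-myc low. Its difference of -0.63 (SE 0.200, unadjusted p = 0.0315, adjusted p = 0.765 in limma) had the same sign in both mice, with -0.46 and -0.81. The third, 1450439_at, read 9.51 and 9.08 in N-myc high, against 9.49 and 9.07 in N-myc low, so that it followed the mouse (0.42 higher in mouse 1) and differed by 0.01 between the fractions.

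Zbtb17, which encodes MIZ1, the zinc finger partner through which MYC represses genes and itself a substrate of HUWE1, gave differences near 0. Its probe set 1416224_at read 7.90 and 7.79 in N-myc high, against 7.78 and 7.86 in N-myc low. The groups overlapped, and the difference was 0.03 (SE 0.178, 95% interval -0.44 to 0.50, limma adjusted p = 0.991). This interval still allows a change of up to about 0.50 on the log2 scale. The other, 1443041_at, was dim at 4.06 and 4.11 in N-myc high, against 4.26 and 3.90 in N-myc low.

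**Figure D3:**
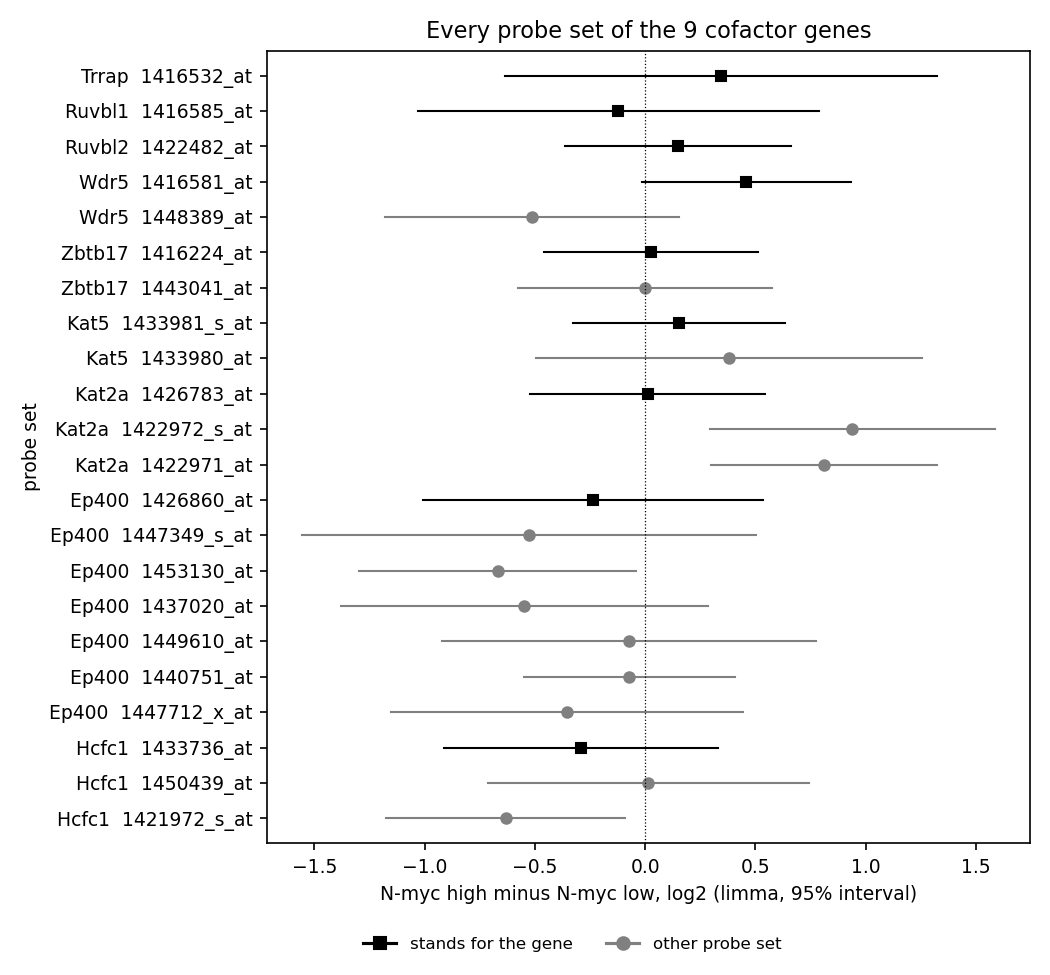
Difference N-myc high minus N-myc low (x axis, log2) of all 22 probe sets (y axis), from the limma fit over all probe sets, with 95% intervals; black squares stand for a gene and grey circles are its other probe sets. The intervals of 4 probe sets leave out 0, none of them one that stands for its gene: 2 of Kat2a above 0, and 1 each of Ep400 (-0.67) and Hcfc1 (-0.63) below 0.

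Counted over all 22 probe sets, 4 (18.2%) had an unadjusted p under 0.05, 2 of them higher (both Kat2a) and 2 lower (Ep400 and Hcfc1), against 6.37% of all probe sets. The 4 come from 3 genes, and none passed the adjusted threshold. Groups did not overlap in 5 probe sets with N-myc high above (14.4% of all) and in 7 with N-myc high below (22.1% of all), and 4 of those 7 belong to Ep400. The median difference over the 22 was -0.04, against -0.05 over all probe sets. Of the genes with several probe sets, Kat5, Kat2a and Ep400 kept one sign in all of them, and Wdr5, Zbtb17 and Hcfc1 had both signs, although for Zbtb17 the values were 0.03 and -0.0018.

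**Figure D4:**
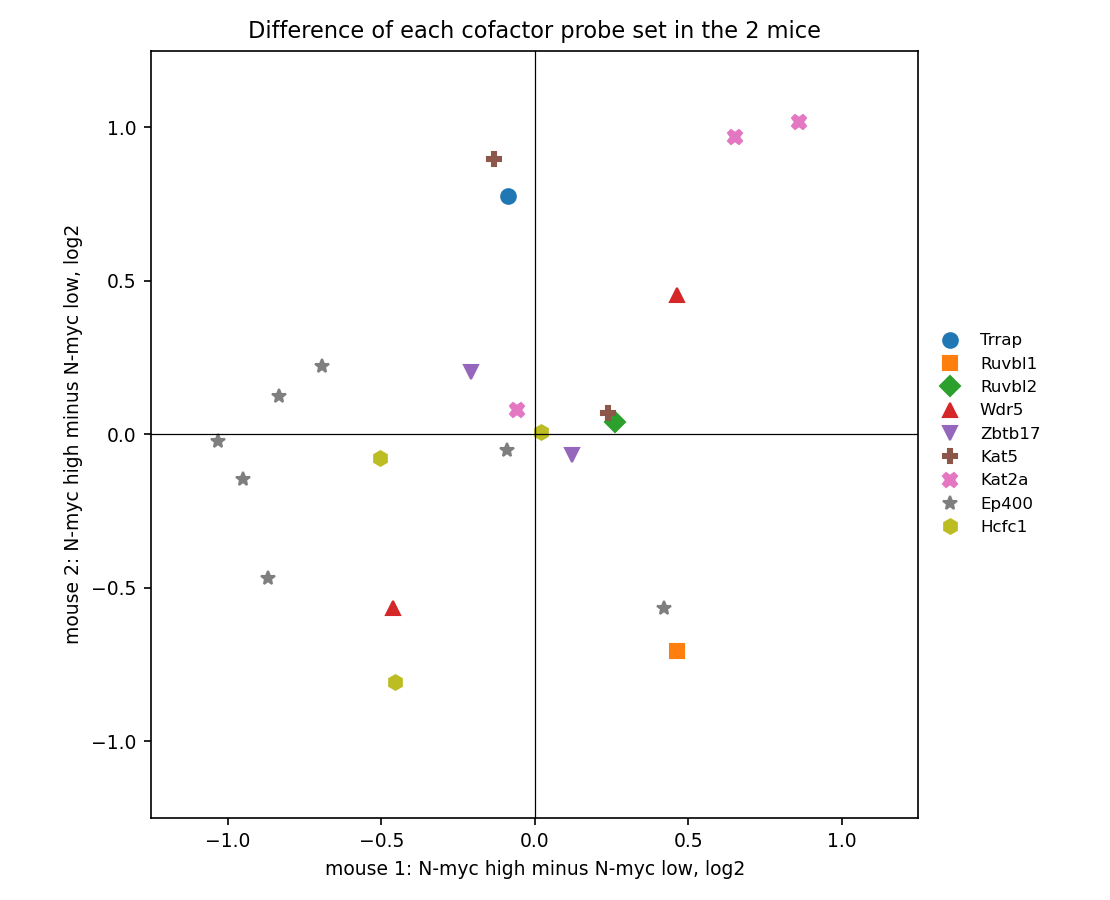
Difference N-myc high minus N-myc low (log2) of each of the 22 probe sets in mouse 1 (x axis) and in mouse 2 (y axis), 1 symbol per gene. In 13 of 22 the sign was the same in both mice (53.0% of all probe sets); the 2 Kat2a points lie far up on the right, and the Ep400 points spread along mouse 1 more than along mouse 2.

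The mice also differed from each other. For 7 of the 9 genes the difference between the fractions was larger than the difference between the mice averaged over the fractions, against 52.8% of all genes, and Trrap (-0.49, mouse 1 minus mouse 2) and Kat2a (-0.18) were the exceptions.

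MYC and MAX bind the E-box CACGTG and, more weakly, the related CACGCG, and the promoters of the cofactor genes were searched for both to show which of them carry these letters. RefSeq promoter windows (build GRCm38.p6, 250 bases before to 50 bases after a transcript start) were found for 9 of 9 genes, as 11 windows. CACGTG, which reads the same on both strands, was in 1 window, of Kat5, against 7.15% of all 32851 windows. CACGCG, or CGCGTG on the other strand, was in 3 windows, of Ruvbl1, Wdr5 and Ep400, against 9.27% of all windows. The motifs do not share letters where they were found, and a match is a description of the sequence only. The windows are printed for Kat5, as the only one with the full E-box, for Wdr5, as the gene of lowest p, and for Ep400, as the gene whose probe sets all lay below 0, each 5′ to 3′ on the gene's strand with the motif in capitals.
Kat5 (chr19:5610045-5610344, - strand): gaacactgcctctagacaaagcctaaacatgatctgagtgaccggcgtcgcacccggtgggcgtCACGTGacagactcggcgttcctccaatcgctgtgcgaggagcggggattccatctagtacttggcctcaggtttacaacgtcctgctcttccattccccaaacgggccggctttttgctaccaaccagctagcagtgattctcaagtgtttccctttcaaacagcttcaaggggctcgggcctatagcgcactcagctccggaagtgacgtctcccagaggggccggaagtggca
Wdr5 (chr2:27514897-27515196, + strand): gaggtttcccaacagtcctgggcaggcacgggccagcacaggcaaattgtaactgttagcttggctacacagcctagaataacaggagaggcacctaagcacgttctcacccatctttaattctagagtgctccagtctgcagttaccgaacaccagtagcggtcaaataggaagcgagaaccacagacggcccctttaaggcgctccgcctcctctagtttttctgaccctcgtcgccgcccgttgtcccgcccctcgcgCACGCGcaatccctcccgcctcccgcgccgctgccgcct
Ep400 (chr5:110770668-110770967, - strand): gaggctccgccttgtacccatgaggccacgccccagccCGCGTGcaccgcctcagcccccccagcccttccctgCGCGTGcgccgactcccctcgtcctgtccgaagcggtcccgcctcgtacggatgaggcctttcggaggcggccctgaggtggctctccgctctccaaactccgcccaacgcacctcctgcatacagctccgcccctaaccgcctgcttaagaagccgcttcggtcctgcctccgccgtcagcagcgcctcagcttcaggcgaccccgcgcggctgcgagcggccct

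Among the genes with a motif, the differences between the fractions were 0.15 for Kat5, 0.46 for Wdr5, -0.24 for Ep400 and -0.12 for Ruvbl1, without a shared sign. The other Kat5 window and the windows of Trrap, Ruvbl2, Zbtb17, Kat2a and Hcfc1 held neither motif.

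The partners of these cofactors were taken by complex. Together 82 of 85 listed partner genes were measured, 0 passed the adjusted threshold in limma, 8 were higher and 2 lower at an unadjusted p under 0.05 (3.53% and 2.78% of all genes), and the median difference was -0.02. The rule for named genes took 24 genes by p or list size from these lists and the MYC and MAX list. Of the 24, 18 had another probe set, and 9 of these 18 had another of opposite sign.

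Of the TIP60 complex, 13 of 14 partners were measured, with a median difference of 0.09. Of these, 3 were higher and 0 lower at an unadjusted p under 0.05 in limma (3.53% and 2.78% of all genes). Meaf6, a small subunit shared by several acetyltransferase complexes, read 8.36 and 8.10 in N-myc high, against 7.49 and 7.28 in N-myc low, a difference of 0.84 (SE 0.203, limma adjusted p = 0.762), and its other probe set gave 1.10. Actl6a, an actin-related subunit also found in BAF complexes, read 8.36 and 8.01 in N-myc high, against 7.48 and 7.46 in N-myc low, a difference of 0.71 (SE 0.207, limma adjusted p = 0.769), with 0.42 and 1.61 from its other probe sets. Every probe set of both genes had a difference above 0, yet neither gene passed the adjusted threshold.

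SAGA had 19 of 20 partners measured, with a median of -0.01. Of these, 2 were higher and 1 lower at an unadjusted p under 0.05 in limma (3.53% and 2.78% of all genes). Supt7l, a core subunit, read 7.20 and 7.49 in N-myc high, against 8.18 and 8.22 in N-myc low, a difference of -0.86 (SE 0.197, limma adjusted p = 0.762). Usp22, the deubiquitinase of SAGA, read 9.56 and 9.41 in N-myc high, against 8.86 and 8.69 in N-myc low, a difference of 0.71 (SE 0.188, limma adjusted p = 0.762). The subunits named from one complex thus had opposite signs. In each, the other probe sets kept the sign of the first.

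For the INO80, SRCAP and R2TP assemblies that share RUVBL1 and RUVBL2, 19 of 19 partners were measured, with a median of -0.02. Of these, 1 was higher and 1 lower at an unadjusted p under 0.05 in limma (3.53% and 2.78% of all genes). Actr6, an actin-related subunit of SRCAP, read 6.48 and 6.58 in N-myc high, against 5.53 and 5.56 in N-myc low. This gap of 0.98 (SE 0.176, limma adjusted p = 0.744) was the widest of all partners and rested on 1 probe set. Tti2, a co-chaperone of PIKK proteins such as TRRAP, differed by -0.74 (SE 0.207), but its other 4 probe sets ran from -1.68 to 0.77.

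COMPASS, the methyltransferase family that WDR5 serves, had all 12 listed partners measured. Of these, 10 had values below 0, as did 9959 of all 18193 genes. The COMPASS median was -0.23, against -0.03 over all genes. N-myc high lay below N-myc low without overlap for 6 of 12 (20.8% of all genes) and above for 0 (15.6%). In limma 0 reached an unadjusted p of 0.05. Among those 6, Setd1b, Kmt2c and Kdm6a each had another probe set of opposite sign (0.15, 0.19 and 0.47). The other probe sets of Ash2l, Kmt2d and Kmt2a kept the sign. Ash2l, a core subunit beside WDR5, read 8.71 and 8.59 in N-myc high, against 9.09 and 9.0 in N-myc low, a difference of -0.39 (SE 0.179, limma adjusted p = 0.793), with -0.54 from its other probe set. Kdm6a, an X-linked histone H3 demethylase, differed by -0.48 (SE 0.260), with 1 of its 3 other probe sets of opposite sign.

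**Figure D5:**
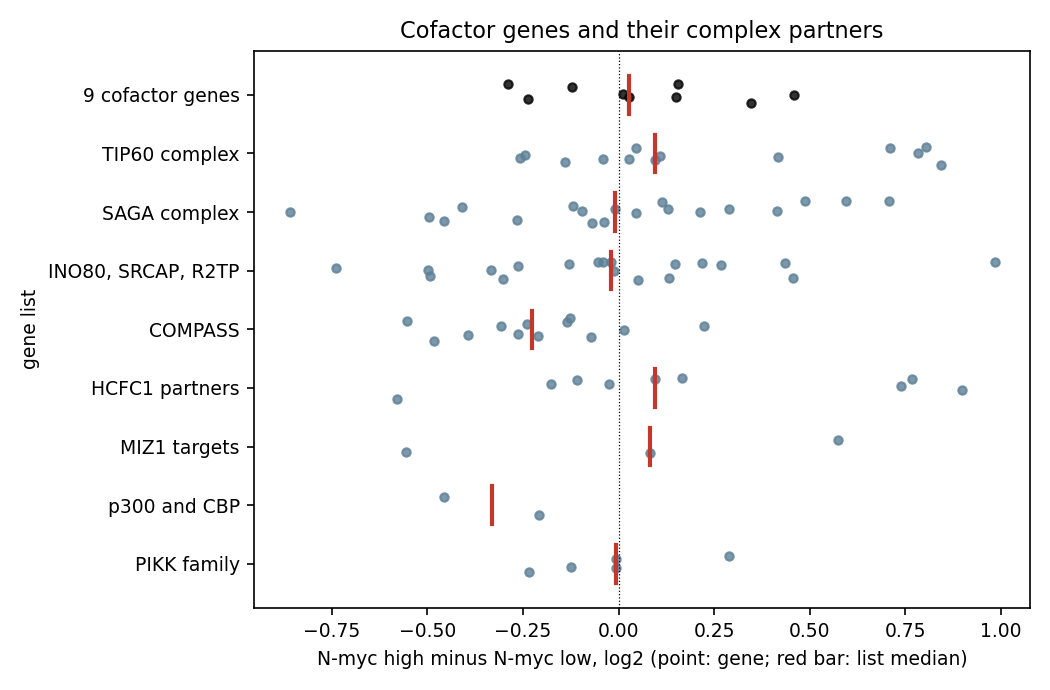
Difference N-myc high minus N-myc low (x axis, log2) of each measured gene (points) by list (y axis), with the list median as a red bar. The medians lie between -0.33 (p300 and CBP) and 0.10 (HCFC1 partners), with 0.03 for the 9 cofactor genes.

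HCFC1 partners had a median of 0.10, with 9 of 10 genes measured. Of these, 2 were higher and 0 lower at an unadjusted p under 0.05 in limma (3.53% and 2.78% of all genes). Hcfc1r1, a regulator of where HCFC1 sits in the cell, read 10.57 and 10.89 in N-myc high, against 10.02 and 9.65 in N-myc low, a difference of 0.90 (SE 0.236, limma adjusted p = 0.762) that its other probe set shared with 0.44. Asxl2, a partner of the deubiquitinase BAP1, differed by 0.77 (SE 0.183), but 3 of 4 further probe sets gave values below 0. The acetyltransferases p300 and CBP, encoded by Ep300 and Crebbp, differed by -0.46 (SE 0.235) and -0.21 (SE 0.189), both below 0 in each mouse. Ep300 had a single probe set, while the other 3 of Crebbp gave 0.37, 0.0052 and -0.59, so its sign depended on the probe set.

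The target genes of MIZ1 did not share a sign. The survival gene Bcl2 differed by -0.56 (SE 0.355), the kinase inhibitor Cdkn1a by 0.57 (SE 0.454) and Cdkn2b by 0.08 (SE 0.180). Cdkn2b was dim, at 3.15 and 3.31 in N-myc high, against 3.18 and 3.11 in N-myc low, so its small difference says little. By mean signal only Bcl2 of the 3 lay above the median gene of 6.22. For Bcl2, 2 of 4 other probe sets had the opposite sign, and the other one of Cdkn1a gave -0.34. Cdkn1a stood highest in N-myc high of mouse 2, with 5.38 and 6.64 in N-myc high (mouse 1 and 2), against 5.46 and 5.42 in N-myc low. Among the kinases related to TRRAP, Atm differed by 0.29, Atr by -0.23 and Smg1 by -0.12, while Mtor and Prkdc each differed by -0.01. The other probe set of Atm gave -0.33, and those of Atr ran from -0.88 to 0.30. Mycn differed by 0.89 (SE 0.189, limma adjusted p = 0.762) in its brightest probe set and by 0.11 and 1.06 in the others, whereas Myc, Max and Mycl gave -0.21, -0.18 and -0.15.

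Wdr5, the cofactor of lowest p, was set beside 86 genes, the 82 partners and the 4 of the MYC and MAX list, for likeness of pattern, measured as the root-mean-square distance between mean-centred log2 values over the 4 arrays. The nearest were Vps72, an H2A.Z chaperone (0.0732), Atxn7, a SAGA subunit (0.0895), and Taf12, a SAGA and TFIID subunit (0.117). Atxn7 had another probe set of opposite sign (-0.31). Over all genes, 100 lay as near to Wdr5 as Vps72 did. Vps72 read 8.06 and 8.11 in N-myc high, against 7.77 and 7.56 in N-myc low. Likeness over 4 arrays is a description, and it used the brighter probe set of Wdr5 alone.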

How the data were processed

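RNA of 5 ng per sample was amplified and biotin-labelled with NuGEN Ovation reagents, per the labels' protocols. The deposited log2 values were made by the authors with RMA, and affy and limma are also named, per the submitters' processing notes, without versions. RMA equalises the distributions of the arrays, which removes any shift shared by all genes. No chip definition or filter was found in the labels. Of 45101 probe sets, 64 controls were left out, 34945 had 1 gene name, 932 several and 9160 none, and only the first kind entered the gene-level test. Symbols were checked through Entrez numbers (34741 matched, 0 changed).

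The fractions were compared with limma 3.58.1 under R 4.3.3 (lmFit and eBayes, then Benjamini-Hochberg over all 18193 genes), with a second fit over all 45037 probe sets for those that do not stand for a gene. Dim genes were kept. The code was tested on simulated data. The p-values measure the spread between 2 arrays per group, whose number limits the precision. Same mouse numbers were read as the same animal, as the labels say, and the correlation over genes between deviations of such arrays from the group mean was 0.0492. The members and lists were chosen with earlier results of these data known. Named were all 9 members and, of each partner list, the 2 genes of lowest unadjusted p (all genes in lists of 5 or fewer), and the 3 partner genes nearest in pattern to the member of lowest p. C1qb, Cd48, Xist and Eif2s3y were chosen after their values were seen. Alternatives were the mean of probe sets, the mouse as a block, a filter on dim genes, median centring, and leaving out each array. Further ones were eBayes with trend and robust settings, and no _s_at or _x_at probe sets where the gene has another.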

Additional observations from a re-analysis of the deposited data

How the results depend on the processing

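No member and no gene passed the adjusted threshold under any alternative run in limma. With all arrays kept, 53 of 54 values of the 9 genes kept their sign. The exception was Wdr5, at -0.028 over the mean of its probe sets. Most of the 54 could not change, so this count is no measure of robustness. The mouse block, the filter on dim genes and eBayes with trend and robust settings leave each difference as it was. Trrap, Ruvbl1 and Ruvbl2 have a single probe set, so a change of probe sets leaves them unchanged too. Under a replicate block by mouse the members' median stayed at 0.03, Wdr5 had an SE of 0.183 and an adjusted p of 0.781 in limma, and the block changed no call; over all genes 653 were higher and 445 lower at an unadjusted p under 0.05, against 642 and 506 without it. Leaving out 1 array turned the sign in 8 of 36 values: Trrap ranged from -0.12 to 0.81, Ruvbl1 from -0.46 to 0.22, Zbtb17 from -0.030 to 0.084, Kat2a from -0.11 to 0.14 and Ep400 from -0.51 to 0.036. Signs held for Wdr5 (0.43 to 0.49), Kat5 (0.11 to 0.20), Ruvbl2 (0.04 to 0.26) and Hcfc1 (-0.51 to -0.07). The members' median ranged from -0.010 to 0.15 when 1 array was left out and was -0.036 with every probe set counted singly. Members higher at an unadjusted p under 0.05 numbered 1 over the mean of probe sets, 1 with median centring and 0 to 1 with an array left out, and 2 higher and 2 lower with every probe set counted singly. The 1 member was not the same gene: Kat2a over the mean of probe sets and Wdr5 with median centring. Without N-myc high mouse 1 it was Trrap, whose difference of 0.81 there rested on 1 N-myc high array. Of all 18193 genes, 641 were higher and 581 lower over the mean of probe sets, and 743 and 417 with median centring. The counts over all genes were 363 higher and 243 lower without genes under the median gene, where fewer were tested. They were 1376 and 1494 of 45037 over every probe set, where more were tested. With an array left out they ranged from 524 to 769 higher and from 271 to 743 lower, the lowest of these without N-myc high mouse 2. Dim probe sets have no measured background beside them here, and 2 arrays per group leave 95% intervals wider than the differences of the 9 genes.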
